A study of Mus musculus with 7 samples.

Results

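The genes described here are 10 that carry the endothelin, natriuretic peptide and adrenomedullin signals of the vessel wall, out of 21878 genes in the count table. They were chosen by name: the ligand genes Edn1 and Adm, the processing enzyme gene Ece1, and the receptor genes Ednra, Ednrb, Npr1, Npr2, Npr3, Calcrl and Ramp2. All 10 had a row in both the count and the FPKM table, and all 10 passed the filter on low counts, which left 14609 genes to test. The tissue was the abdominal aorta, taken from C57BL/6 males aged 8 weeks, and the libraries hold polyadenylated RNA. Of the 7 libraries, 3 were from ApoE-/- mice (ApoE 1 to ApoE 3) and 4 from ApoE-/-Nur77-/- mice (DKO 1 to DKO 4). Both groups therefore lack the apolipoprotein ApoE by label, and both received the pressor peptide angiotensin II (Ang II), with an exposure of at most 28 days. The second group is labelled as also lacking Nur77, the nuclear receptor encoded by Nr4a1. There was no group without Ang II and no group with intact ApoE, so the levels have no healthy baseline. The sources used here do not give how the alleles were made or whether each library is 1 mouse. The p-values therefore measure the spread between these libraries, which may be technical.

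Endothelin-1 is released by endothelial cells as a large precursor that the membrane protease ECE-1 cuts to the active peptide. On smooth muscle it binds the ETA receptor (Ednra) and contracts the vessel, and on endothelium the ETB receptor (Ednrb) clears it and triggers release of nitric oxide. Natriuretic peptides relax smooth muscle through cyclic GMP made by the receptors NPR-A (Npr1) and NPR-B (Npr2), while NPR-C (Npr3) takes the peptides up and removes them. Adrenomedullin, a dilator made by endothelium and smooth muscle, acts on the receptor CALCRL only when that protein is paired with a RAMP partner, and RAMP2 makes the pair selective for adrenomedullin.

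Totals were 19295287 to 21727192 counts per library, and 3 counts, the most that a count of 0 allows, were worth 0.133 to 0.164 CPM (counts relative to TMM-scaled library size; the limit covers counting error only). The genotype labels could not be read back from the 2 targeted genes. Nr4a1 was read at 193, 56.4 and 111 CPM in ApoE 1 to 3 and at 46.2, 57.0, 90.1 and 92.7 CPM in DKO 1 to 4 (edgeR adjusted p = 0.360). Apoe was read at 184 to 250.3 CPM in the libraries labelled ApoE-/- and at 18.3 to 34.7 CPM in those labelled double knockout, although both are labelled as knockouts of it. At 0.129-fold (edgeR adjusted p = 0.0227), Apoe ranked 1 of 14609 genes by p. Which part of either gene was removed is not given in the sources used here. Every direction given is for the 4 libraries labelled double knockout relative to the 3 labelled ApoE-/-. Markers of the aortic wall were present: the 9 contractile smooth muscle markers summed to 8209 to 29789 CPM and the 12 endothelial markers to 1791 to 2372 CPM, with none at 0 in any library. ApoE 2 and ApoE 3 also held transcripts of atrial heart muscle: the 10 atrial markers summed to 433 and 1480.4 CPM there and to 49.1 to 106 CPM in the other 5 libraries.

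The clearest separation between the groups was that of Ramp2, at 0.571-fold in the libraries labelled double knockout, but it did not pass the test over all genes. The other 9 genes overlapped between the groups. With edgeR's quasi-likelihood test and Benjamini-Hochberg adjustment over all genes (threshold 0.05), 0 of the 10 genes were higher and 0 lower, against 0.0274% of all genes called in either direction. At an unadjusted p under 0.05, 1 gene was lower (Ramp2; 11.8% of all genes were lower at that level) and 0 were higher (8.00% of all genes; 19.8% in either direction). DESeq2 and limma voom with sample quality weights each called 1 of the 10, again Ramp2 and lower, where they called 8.03% and 16.2% of all genes in either direction. The log2 fold changes of the 10 genes ran from -0.81 to 0.64 with a median of -0.11, beside a median of -0.02 over all genes tested. The groups did not overlap for 1 of the 10 genes, beside 16.3% of all genes (7.08% higher and 9.24% lower), so this count is near the background.

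**Figure D1:**
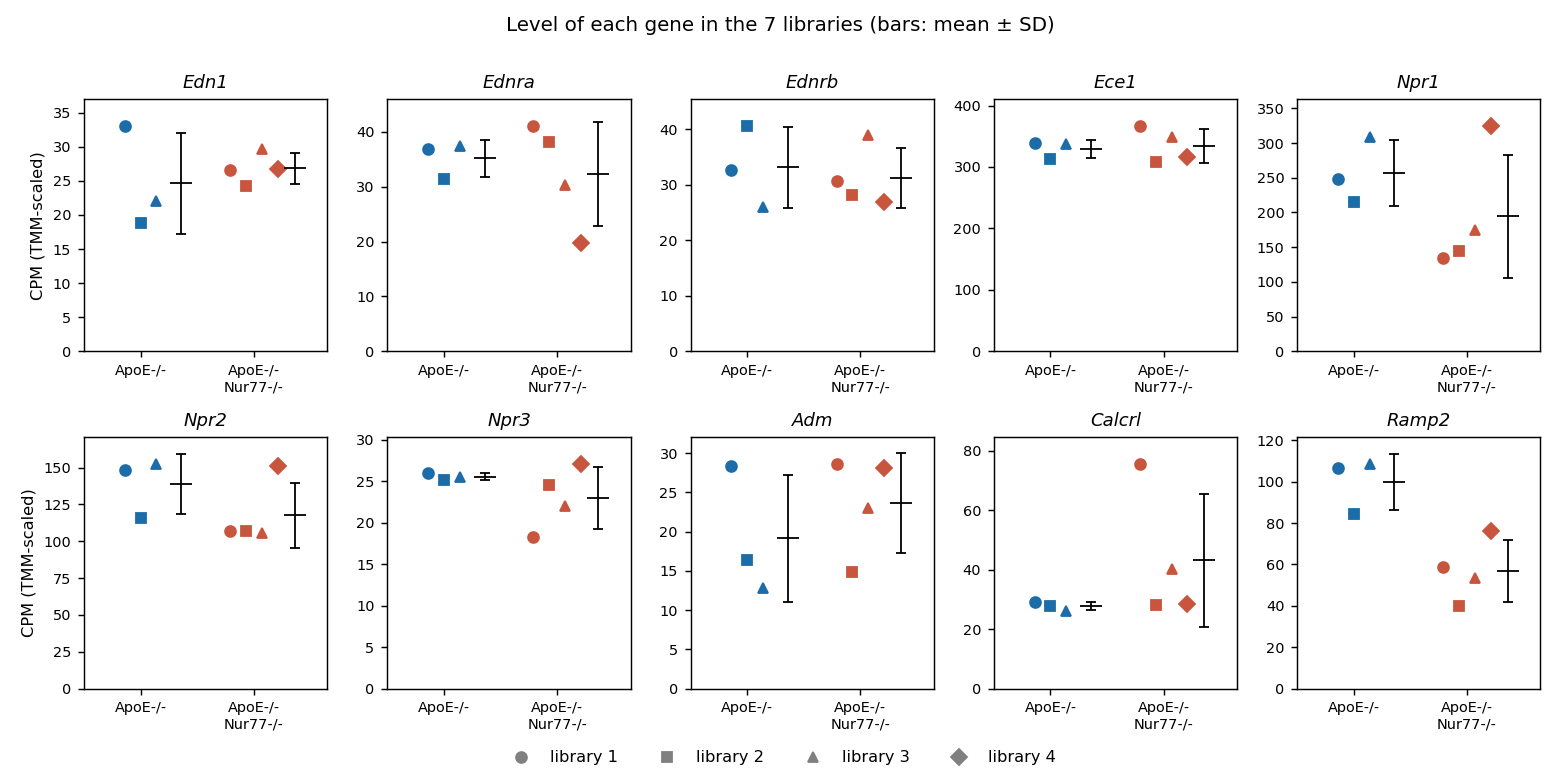
Level of each of the 10 genes in the 7 libraries, as CPM on TMM-scaled library sizes; marker shapes are library numbers 1 to 4, colours the groups, and bars the mean ± SD. The 4 libraries labelled double knockout lie below the 3 labelled ApoE-/- for Ramp2 (39.8 to 76.1 against 84.3 to 109 CPM), and the groups overlap for the other 9 genes.

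In the deposited FPKM, which scale for length, the adrenomedullin receptor partner Ramp2 was the highest of the 10 genes in all 7 libraries and the clearance receptor Npr3 the lowest in all 7. The place of Ramp2 changed with another scaling for length, given below, and that of Npr3 did not. Mean levels were 95.2 ± 28.1 FPKM (SD, n = 7) for Ramp2, 45.5 ± 4.45 FPKM for Ece1, 36.7 ± 11.3 FPKM for Npr1, 21.5 ± 2.82 FPKM for Npr2, 14.4 ± 4.73 FPKM for Adm, 11.9 ± 2.04 FPKM for Edn1, 8.86 ± 2.04 FPKM for Ednra, 7.73 ± 1.63 FPKM for Ednrb, 7.21 ± 3.56 FPKM for Calcrl and 2.44 ± 0.28 FPKM for Npr3. Neighbours in that order were not all separated. Ramp2 was above Ece1, Npr1 above Npr2, Edn1 above Ednra and Calcrl above Npr3 in 7 of 7 libraries. Npr2 was above Adm and Ednrb above Calcrl in 6 of 7, Ece1 above Npr1 and Adm above Edn1 in 5 of 7, and Ednra above Ednrb in 4 of 7. Counts divided by FPKM give the length that the authors' scaling used. This was 7.32 kb for Ece1, 5.97 kb for Npr1 and 5.87 kb for Npr2, where the longest GENCODE M21 transcript is 4.82, 4.07 and 3.66 kb. For Edn1 both were close, at 2.18 and 2.14 kb. It was 9.88 kb against 6.89 kb for Npr3 and, the other way round, 0.779 kb against 1.48 kb for Ramp2. In CPM per kb of the longest transcript, an order worked out after seeing the data, the means over 7 libraries were 69.0 ± 4.47 for Ece1, 54.5 ± 18.7 for Npr1, 51.0 ± 17.9 for Ramp2 and 34.6 ± 6.18 for Npr2. The other 6 genes kept their places, with Npr3 lowest in 7 of 7 libraries. Ece1 was then the highest gene in 4 libraries, Npr1 in 2 and Ramp2 in 1.

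**Figure D2:**
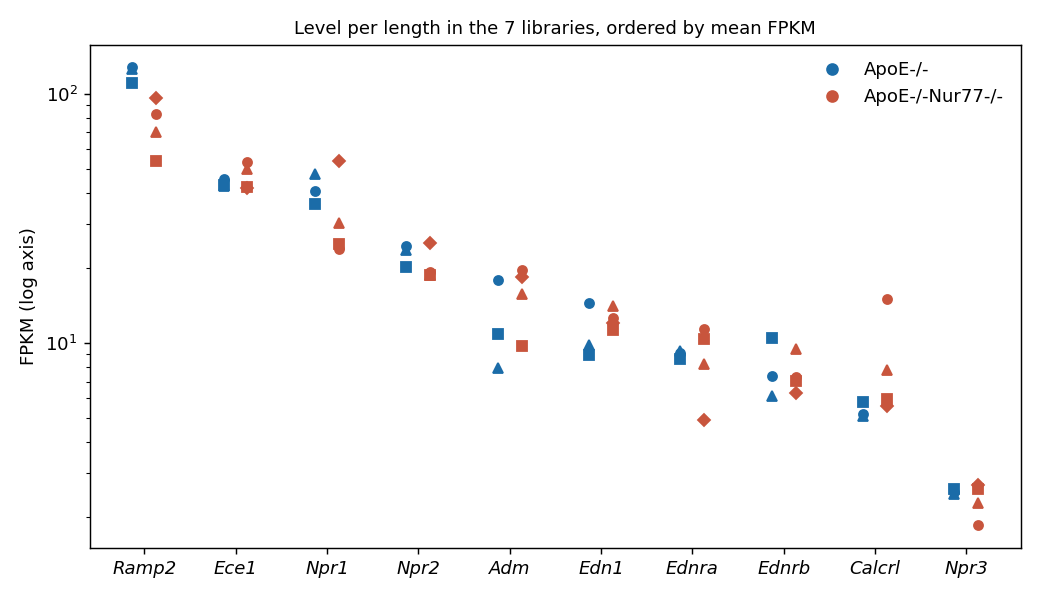
Deposited FPKM (log axis) of the 10 genes in each library, ordered by their mean over the 7 libraries. Marker shapes are library numbers 1 to 4 and colours the groups. Ramp2 is highest and Npr3 lowest in every library, while Ednra and Ednrb lie close together.

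The promoter sequences of 4 of the genes are shown, as far as the RefSeq windows on GRCm38.p6 gave any (9 of the 10 genes, 12 windows; none for Ramp2). They are shown because they hold the motif matches named after them, and they cover a ligand, the processing enzyme and 2 receptors. Each stretch is the 120 bases that end just before the annotated start, read 5′ to 3′ on the strand of the gene. Capitals mark matches to the motifs searched, on either strand.

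Adm, chr7:110627537-110627656, plus strand: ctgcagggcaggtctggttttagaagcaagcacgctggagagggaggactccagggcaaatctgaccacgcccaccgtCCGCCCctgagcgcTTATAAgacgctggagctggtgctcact
Calcrl, chr2:84425267-84425386, minus strand: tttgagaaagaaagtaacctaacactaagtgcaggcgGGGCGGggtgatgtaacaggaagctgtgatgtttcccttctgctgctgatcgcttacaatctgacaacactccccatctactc
Npr1, chr3:90465867-90465986, minus strand: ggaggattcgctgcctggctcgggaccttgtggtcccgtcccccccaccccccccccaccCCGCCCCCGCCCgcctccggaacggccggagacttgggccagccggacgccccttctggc
Ece1, window 3 of 4, chr4:137913438-137913557, plus strand: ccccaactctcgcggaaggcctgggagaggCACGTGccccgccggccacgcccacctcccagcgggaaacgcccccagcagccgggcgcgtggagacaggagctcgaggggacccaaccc

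Motifs were searched on both strands of windows of 300 bases, 250 before and 50 after the start. A stretch after the start was looked for in the GENCODE M21 transcripts of the same gene. It was found for every window but that of Npr3, so the Npr3 window is less certain. The Nur77 response element NBRE (AAAGGTCA) was in 0 of the 12 windows, and in 1.51% of all 32851 windows. The AP-1 motif (TGANTCA) was in 0 of 12, against 7.81% of all windows. The core of the hypoxia response element (ACGTG) was in 2 of 12, against 19.6%: in Ece1 window 3 at -90 to -85, where both strands match and overlap as CACGTG (an E-box), and in Edn1 at 22 to 26 after the start. The TATA box core (TATAA) was in the Adm window alone, at -28 to -23, where both strands match and overlap as TTATAA, against 24.9% of all windows. The GC box (GGGCGG) was in 6 windows of 4 genes (Ece1, Npr1, Adm and Calcrl), against 35.7%, with 2 adjoining matches in Npr1 at -60 to -49. Ece1 windows 1 and 2 overlap and hold the same 2 matches, which are counted in both. These are letters in a sequence and not tested sites, and a motif that is missing from the window may lie elsewhere.

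Of the ligands, Edn1 (chromosome 13, 42301476 to 42307990), which encodes endothelin-1, was read at 33.0, 18.9 and 22.1 CPM in ApoE 1 to 3 and at 26.7, 24.2, 29.7 and 26.8 CPM in DKO 1 to 4. ApoE 1 was the highest and ApoE 2 the lowest of the 7, so the libraries labelled double knockout lay inside the range of the others. The log2 fold change of Edn1 was 0.12 (SE 0.19; 95% interval -0.33 to 0.57; edgeR adjusted p = 0.764). It turned to -0.038 without ApoE 2.

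Adm (chromosome 7, 110627657 to 110629820), the adrenomedullin gene, was read at 28.3, 16.4 and 12.8 CPM in ApoE 1 to 3 and at 28.7, 14.9, 23.0 and 28.1 CPM in DKO 1 to 4. Both groups held high and low libraries, with ApoE 1, DKO 1 and DKO 4 near 28 CPM. The means were 19.2 ± 8.12 CPM (SD, n = 3) and 23.7 ± 6.37 CPM (SD, n = 4), and the log2 fold change was 0.30 (SE 0.32; 95% interval -0.45 to 1.06; edgeR adjusted p = 0.630). It was 0.70 without ApoE 1, 0.082 without ApoE 3 and 0.0039 with limma voom, and none of these passed the test.

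The other ligand genes of the 3 systems were scarce, except Nppa in 2 libraries. Edn2 had 2 counts, all in ApoE 3. Edn3, whose peptide prefers the ETB receptor, ranged from 0.192 CPM in DKO 1 to 4.78 CPM in DKO 2 with overlapping groups (log2 fold change -0.18, SE 1.10, edgeR adjusted p = 0.945). Nppc, which encodes the C-type peptide that activates NPR-B, was at 0.273 to 0.843 CPM in all libraries (log2 fold change 0.17, SE 0.52, edgeR adjusted p = 0.889). Adm2, the gene of the related peptide intermedin, had 1, 0 and 0 counts in ApoE 1 to 3 and 22, 12, 7 and 0 in DKO 1 to 4, too few to be tested. Nppa, the atrial natriuretic peptide gene, had 221 and 367 counts in ApoE 2 and ApoE 3, 2 in DKO 2 and 0 in the other 4 libraries, and Nppb, the B-type gene, had 7 counts in ApoE 2 alone. In FPKM, Nppa was at 11.2 in ApoE 2 and 19.8 in ApoE 3, above both Edn1 and Adm in those libraries. ApoE 2 and ApoE 3 were the libraries with atrial muscle markers (433 and 1480.4 CPM in sum, Nppa included); 4 of the 10 atrial markers were at 0 in at least 1 library. The part of heart tissue in the Nppa reads was not tested.

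Among the enzymes that make and remove the peptides, Ece1 (chromosome 4, 137862237 to 137965229) was the steadiest of the 10 genes, with a highest library only 1.19 times the lowest. It was read at 339, 312 and 338 CPM in ApoE 1 to 3 and at 366, 308, 349 and 316 CPM in DKO 1 to 4 (log2 fold change 0.02, SE 0.10, 95% interval -0.21 to 0.25, edgeR adjusted p = 0.926). The interval bounds a difference in Ece1 between 0.865 and 1.19-fold. Furin, the convertase that cuts the precursors of endothelin and other peptides, was read at 142, 128 and 136 CPM in ApoE 1 to 3 and at 189.9, 174, 170.2 and 141 CPM in DKO 1 to 4. DKO 4 lay inside the range of the first group (log2 fold change 0.32 with SE 0.11, edgeR adjusted p = 0.197). Limma voom with quality weights, which weighted DKO 4 least (0.406), gave an adjusted p of 0.0479.

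Mme encodes neprilysin, the membrane protease that degrades natriuretic peptides, endothelin and adrenomedullin. It was read at 22.4, 24.7 and 31.8 CPM in ApoE 1 to 3 and at 22.4, 14.1, 15.9 and 16.0 CPM in DKO 1 to 4. The groups did not overlap, but ApoE 1 (22.41 CPM) and DKO 1 (22.36 CPM) almost met (log2 fold change -0.62, SE 0.19, edgeR adjusted p = 0.167). Corin, the heart protease that activates the atrial peptide, was at 2.02 and 6.44 CPM in ApoE 2 and ApoE 3, the libraries with atrial markers, and at 0.222 to 0.665 CPM in the other 5. The log2 fold change came to -2.85 with SE 0.80 (edgeR adjusted p = 0.159; DESeq2 adjusted p = 0.0216). It was -1.64 without ApoE 3 and -0.41 (edgeR adjusted p = 0.896) without ApoE 2 and ApoE 3.

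The endothelin receptors were present at like levels and overlapped between the groups. Ednra (chromosome 8, 77663029 to 77724452) was read at 36.8, 31.3 and 37.4 CPM in ApoE 1 to 3 and at 41.0, 38.1, 30.4 and 19.7 CPM in DKO 1 to 4. DKO 1 was the highest and DKO 4 the lowest of the 7 (log2 fold change -0.12, SE 0.24, 95% interval -0.68 to 0.44, edgeR adjusted p = 0.817), and without DKO 4 the value was 0.052. Ednrb (chromosome 14, 103814615 to 103844508) was read at 32.7, 40.5 and 26.1 CPM and at 30.6, 28.2, 38.9 and 26.8 CPM. Its highest and lowest libraries were both labelled ApoE-/- (log2 fold change -0.09, SE 0.19, 95% interval -0.52 to 0.34, edgeR adjusted p = 0.832), and without ApoE 2 the value was 0.083.

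The balance of the 2 endothelin receptors, as the log2 ratio of Ednrb to Ednra FPKM, was -0.32, 0.28 and -0.59 in ApoE 1 to 3 and -0.63, -0.56, 0.20 and 0.35 in DKO 1 to 4. ApoE 2, DKO 3 and DKO 4 had more Ednrb than Ednra, and the other 4 libraries less. The groups differed by 0.05 in this ratio (exact two-sided permutation p = 1, adjusted over 5 within-library measures p = 1; the smallest p that 35 splits allow is 0.0571). Ednra was also set against the smooth muscle markers. Its log2 CPM minus the mean of the contractile list was -4.93, -4.57 and -4.65 in ApoE 1 to 3 and -3.31, -4.05, -4.55 and -6.17 in DKO 1 to 4 (exact two-sided permutation p = 0.686, adjusted p = 0.857). The libraries labelled double knockout spanned a wider range, with an SD of 1.21 against 0.19. DKO 4, where Ednra was lowest, had the highest contractile marker sum (29789 CPM), and DKO 1, where Ednra was highest, had the lowest (8209 CPM).

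Downstream of the ETA receptor, Gnaq and Gna11, the G protein genes that couple it to calcium release, and the phospholipase genes Plcb1, Plcb3 and Plcb4 overlapped between the groups. Of the 12 other endothelin genes listed, 11 were tested and 0 passed edgeR's adjusted threshold in either direction; at an unadjusted p under 0.05, 1 was lower (Mme) and 0 higher. Rgs2, which limits signalling from Gq-coupled receptors, had means of 83.9 ± 19.4 (SD, n = 3) and 60.4 ± 13.3 CPM (SD, n = 4), with a log2 fold change of -0.47 (SE 0.22; edgeR adjusted p = 0.282).

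The 3 natriuretic peptide receptors had lower means in the libraries labelled double knockout, with DKO 4 apart from DKO 1 to 3 for Npr1 and Npr2. Npr1 (chromosome 3, 90450591 to 90465928) was read at 248, 215 and 309 CPM in ApoE 1 to 3 and at 134, 144, 175 and 324 CPM in DKO 1 to 4. DKO 1 to 3 lay below every library labelled ApoE-/-, and DKO 4 above every one. This gave a log2 fold change of -0.40 (SE 0.32; 95% interval -1.15 to 0.34; edgeR adjusted p = 0.506). Without DKO 4 it was -0.77 (edgeR adjusted p = 0.0661).

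Npr2 (chromosome 4, 43629015 to 43651437) was read at 148, 116 and 153 CPM in ApoE 1 to 3 and at 107, 107, 106 and 151 CPM in DKO 1 to 4. DKO 1 to 3 were level with each other and below all 3 libraries labelled ApoE-/-, while DKO 4 was among those (log2 fold change -0.24, SE 0.16, 95% interval -0.63 to 0.14, edgeR adjusted p = 0.442; -0.38 with adjusted p = 0.0947 without DKO 4). Npr3 (chromosome 15, 11839896 to 11907837) was read at 26.0, 25.1 and 25.5 CPM and at 18.3, 24.6, 22.0 and 27.2 CPM. The first group was tight (SD 0.42 CPM), and DKO 4 was again the highest of the second (log2 fold change -0.15, SE 0.14, 95% interval -0.48 to 0.17, edgeR adjusted p = 0.573). With DKO 4 left out, Npr1, Npr2, Npr3 and Ramp2 did not overlap between the groups, and neither did 38.1% of all genes tested.

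The contractile smooth muscle markers ordered the libraries almost as Npr1 did. From lowest to highest both ran DKO 1, DKO 2, DKO 3 and ApoE 2, and both ended with DKO 4, with ApoE 1 and ApoE 3 in the opposite order between them. The marker sum was 24198, 15596 and 20525 CPM in ApoE 1 to 3 and 8209, 13599, 14858 and 29789 CPM in DKO 1 to 4, with 0 of 9 markers past edgeR's test. The log2 CPM of Npr1 minus the mean of these markers was -2.18, -1.80 and -1.61 in ApoE 1 to 3 and -1.60, -2.13, -2.02 and -2.13 in DKO 1 to 4. On that scale the group means were -1.86 ± 0.29 (SD, n = 3) and -1.97 ± 0.25 (SD, n = 4), with overlapping values. White adipocyte markers, 9 of 9 tested and none at 0 in any library, also summed to less in the libraries labelled double knockout (3443 to 4875 CPM against 6721 to 9929 CPM). Fat cells carry Npr1 as well, and the parts of smooth muscle and fat in the Npr1 values were not tested. In such bulk samples fewer cells of a type and less RNA per cell cannot be told apart.

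Of the combined FPKM of the 3 natriuretic peptide receptors, Npr1 made up 62.0 ± 2.25% (SD, n = 3) and 57.9 ± 5.99% (SD, n = 4), Npr2 34.2 ± 2.01% and 37.7 ± 5.34%, and the clearance receptor Npr3 3.85 ± 0.53% and 4.38 ± 0.95%. The Npr3 share was 3.75, 4.42 and 3.37% in ApoE 1 to 3 and 4.15, 5.61, 4.43 and 3.31% in DKO 1 to 4, so the groups overlapped (exact two-sided permutation p = 0.514, adjusted p = 0.857). In CPM, which does not correct for length, the share was 6.15% and 7.16%. The difference was then 1.01 in place of 0.53 percentage points.

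Downstream of these receptors, Prkg1, the cyclic GMP-dependent kinase gene of smooth muscle, and Pde5a, whose product breaks cyclic GMP down, overlapped between the groups. So did 11 of the 11 tested among the 14 other natriuretic peptide genes listed. At edgeR's adjusted threshold 0 passed in either direction, and at an unadjusted p under 0.05 Furin was higher and Corin lower. The 4 genes that make cyclic GMP through nitric oxide were all tested and none passed, adjusted or unadjusted. Nos3, the endothelial nitric oxide synthase gene, had means of 88.2 ± 13.1 (SD, n = 3) and 74.6 ± 12.7 CPM (SD, n = 4; edgeR adjusted p = 0.434). Gucy1a2, a guanylyl cyclase subunit gene, had means of 13.1 ± 3.03 and 15.1 ± 1.40 CPM (edgeR adjusted p = 0.531).

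Of the 2 subunits of the adrenomedullin receptor, Ramp2 separated the groups and Calcrl did not. Ramp2 (chromosome 11, 101246334 to 101248250) was read at 107, 84.3 and 109 CPM in ApoE 1 to 3 and at 58.8, 39.8, 53.2 and 76.1 CPM in DKO 1 to 4. All 4 libraries labelled double knockout lay below all 3 labelled ApoE-/-, with DKO 4 nearest to them. The means were 99.9 ± 13.5 CPM (SD, n = 3) and 57.0 ± 15.0 CPM (SD, n = 4), a log2 fold change of -0.81 (SE 0.21; 95% interval -1.30 to -0.32) or 0.571-fold. It ranked 514 of 14609 genes by p (unadjusted p = 0.00565, edgeR adjusted p = 0.157). DESeq2 (adjusted p = 0.0177) and limma voom with quality weights (adjusted p = 0.0233) called it lower, and the other 15 alternatives did not. The voom weights were lowest for DKO 4 (0.406) and highest for DKO 3 (2.81) and ApoE 1 (2.43). Values did not overlap in FPKM either, but these rescale the same libraries. Leaving out 1 library cannot bring overlap to separate groups, apart from small shifts in scaling, so its lack there adds no evidence.

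Calcrl (chromosome 2, 84330626 to 84425405), the receptor that Ramp2 partners, was read at 29.0, 27.9 and 26.2 CPM in ApoE 1 to 3 and at 75.6, 28.1, 40.3 and 28.4 CPM in DKO 1 to 4. DKO 2 and DKO 4 were level with the first group, and DKO 1 was the highest of the 7 (log2 fold change 0.64, SE 0.35, 95% interval -0.19 to 1.46, edgeR adjusted p = 0.354). Without DKO 1 the value was 0.24. The log2 ratio of Ramp2 to Calcrl FPKM was 4.61, 4.25 and 4.63 in ApoE 1 to 3 and 2.46, 3.17, 3.17 and 4.11 in DKO 1 to 4. In linear terms the means of these logs are 22.6 and 9.35 Ramp2 per Calcrl. That ratio was chosen after the values were seen and has no test.

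Both subunits are abundant in endothelium, so the 12 endothelial markers were set beside them. Their sum was 1973 to 2372 CPM in the libraries labelled ApoE-/- and 1791 to 2281 CPM in those labelled double knockout, 0 of 12 passed edgeR's test at an adjusted or an unadjusted p under 0.05, and none was at 0 in any library. The log2 CPM of Ramp2 minus the mean of these markers was -0.55, -0.60 and -0.52 in ApoE 1 to 3 and -1.32, -1.61, -1.43 and -0.92 in DKO 1 to 4, without overlap. The means differed by -0.77 on this scale, beside an edgeR log2 fold change of -0.81 for Ramp2 itself. The first is a difference of mean log2 CPM and the second a model estimate, so they are not strictly comparable. The difference from the markers was added after the values were seen and has no test. For Calcrl the same difference was -2.42, -2.19 and -2.57 in ApoE 1 to 3 and -0.96, -2.12, -1.83 and -2.34 in DKO 1 to 4 (exact two-sided permutation p = 0.114, adjusted p = 0.429). The white adipocyte markers, with group sums that did not overlap (6721 to 9929 against 3443 to 4875 CPM), were lower in the same libraries as Ramp2, and their part in the Ramp2 values was not tested. The mean log2 CPM of the 7 fibroblast markers did not overlap either, at 9.70 to 9.87 in the libraries labelled ApoE-/- and 9.22 to 9.57 in the others. Their summed CPM did overlap, at 12567 to 14112 and 9714 to 19156 CPM. Of the 7, 4 had a negative log2 fold change and 3 a positive one (Pdgfra, Lum and Col1a1). The part of fibroblasts in the Ramp2 values was not tested. Lymphatic endothelial markers, 6 of 6 tested, summed to 145 to 252 CPM and to 224 to 318 CPM, with DKO 1, the library with most Calcrl, the highest. Their part in the Calcrl values was not tested.

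**Figure D3:**
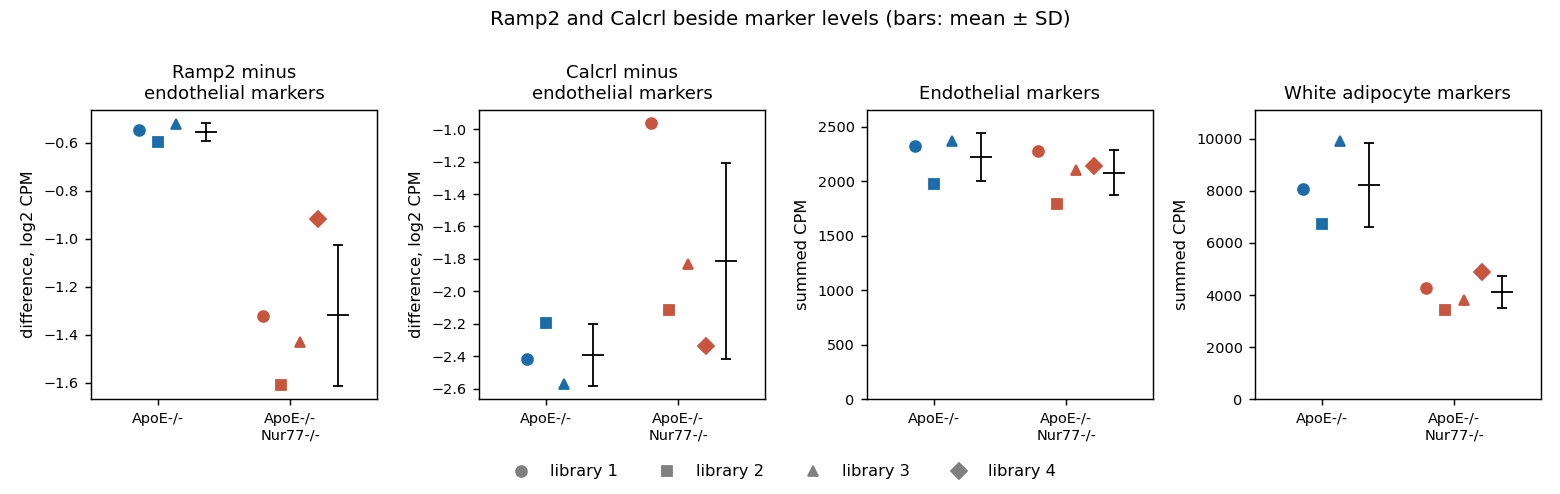
Left, log2 CPM of Ramp2 and of Calcrl minus the mean log2 CPM of 12 endothelial markers; right, summed CPM of the endothelial and of 9 white adipocyte markers. Points are libraries (shapes are library numbers 1 to 4) and bars the mean ± SD; the Ramp2 difference and the adipocyte sum separate the groups, and the endothelial sums overlap.

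Of the other RAMP partners, Ramp1, which turns CALCRL into a receptor for the calcitonin gene-related peptide, was read at 71.1, 50.8 and 63.2 CPM in ApoE 1 to 3 and at 28.7, 45.2, 44.4 and 112 CPM in DKO 1 to 4. DKO 4 was the highest and DKO 1 the lowest, the same order at both ends as the contractile markers (log2 fold change -0.10, SE 0.43, edgeR adjusted p = 0.920); without DKO 1 the value was 0.14. Ramp3, the partner in a second adrenomedullin receptor, was at 0.781 to 2.35 CPM (log2 fold change 0.35, SE 0.50, edgeR adjusted p = 0.733). Ramp2 made up 95.2, 95.7 and 95.5% of the FPKM of the 3 RAMP genes in ApoE 1 to 3 and 95.5, 92.8, 93.3 and 91.6% in DKO 1 to 4 (exact two-sided permutation p = 0.171, adjusted p = 0.429). This share depends on how Ramp1 was scaled for length. The FPKM of Ramp1 imply 12.4 kb, if they came from these counts, where its longest GENCODE M21 transcript is 2.33 kb. In CPM the Ramp2 share was 61.4% and 51.4% on average, a difference of -10.04 in place of -2.15 percentage points.

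Ackr3, an atypical receptor that scavenges adrenomedullin, had means of 83.7 ± 15.4 (SD, n = 3) and 62.7 ± 9.06 CPM (SD, n = 4) with overlapping values (log2 fold change of -0.42, SE 0.16; edgeR adjusted p = 0.216). Calca, which encodes calcitonin and its gene-related peptide, was at 0.744, 0.781 and 1.04 CPM against 0.144, 0.234, 0.622 and 0.460 CPM without overlap (log2 fold change -1.21, SE 0.52, edgeR adjusted p = 0.256). These rest on 15, 17 and 19 counts in ApoE 1 to 3 and on 3, 5, 14 and 9 in DKO 1 to 4. The DKO 1 value is at the limit that a count of 0 allows. Of the 10 other adrenomedullin genes listed, 7 were tested and 0 passed edgeR's adjusted threshold; at an unadjusted p under 0.05, 1 was lower (Ackr3) and 0 higher. Over all 40 other genes of the 3 pathways and the nitric oxide enzymes, 33 were tested. Of these, 0 passed in edgeR, and the groups did not overlap for 3, all lower, beside 16.3% of all genes (9.24% lower). At an unadjusted p under 0.05, 1 was higher and 3 lower, beside 8.00% and 11.8% of all genes, so these counts do not exceed the background. DESeq2 called 1 (Corin, lower) and limma voom 1 (Furin, higher), where they called 8.03% and 16.2% of all genes. Their median log2 fold change was -0.08.

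**Figure D4:**
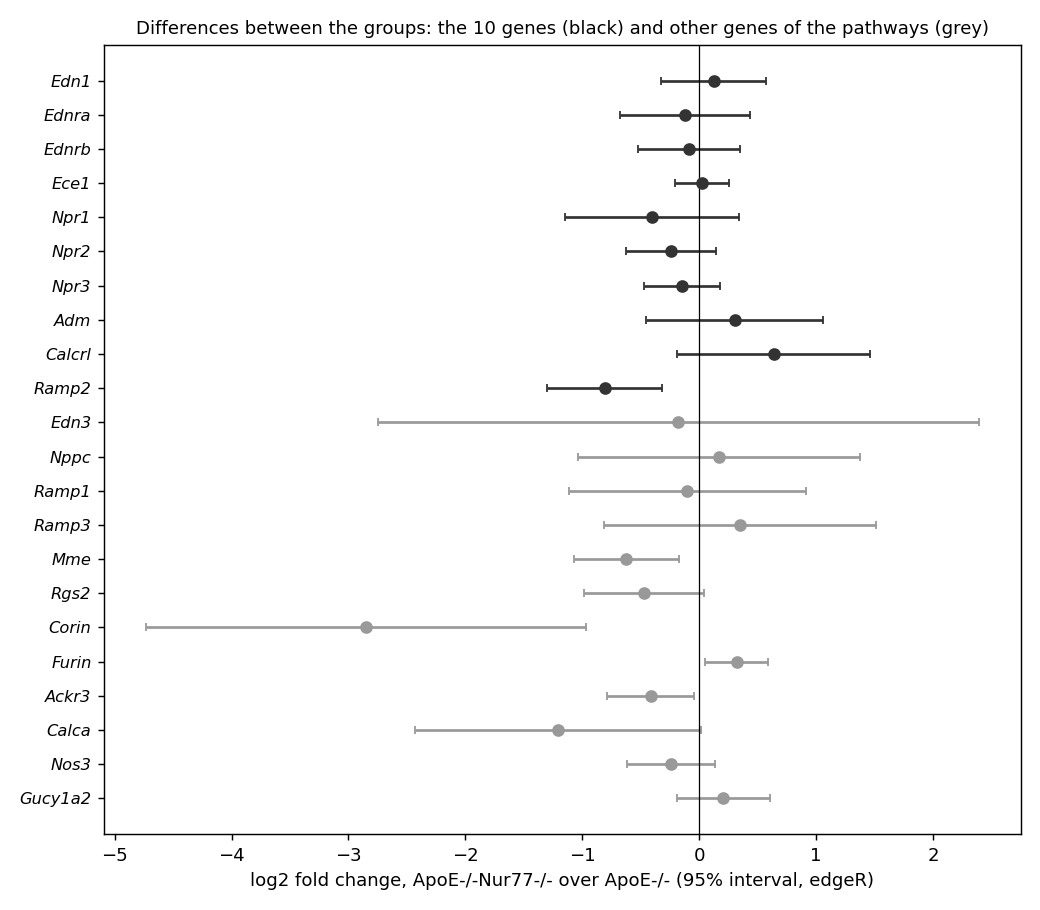
Log2 fold change with its 95% interval (edgeR) for the 10 genes (black) and the named other genes of the pathways that were tested (grey); positive values are higher in the libraries labelled double knockout. The intervals of Ramp2, Mme, Corin, Furin and Ackr3 leave out 0 before adjustment over all genes, and none of these passed after it.

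The genes whose levels followed each of the 10 most closely over the 7 libraries were found by the root mean square difference of centred log2 CPM, among the 13245 other genes with a mean log2 CPM of at least 1. A small value against the gene's own spread means that the curves lie close; with 7 libraries many genes do. Ramp2 (own spread 0.50) was nearest to Rhobtb1 (0.07), Hrct1 (0.08) and Selenbp1 (0.08). Calcrl (0.51) was nearest to Ankrd37 (0.16), Kit (0.18) and F2rl1 (0.19), none as near as those of Ramp2. Npr1 (0.47) was nearest to Amt (0.10), Slc25a23 (0.11) and Bmp6 (0.11), and Npr2 (0.24) to St3gal3 (0.03), Stradb (0.03) and Dpm2 (0.04). Npr3 (0.18) was nearest to Dhdds, Thap7 and Cnn3 (0.04 to 0.05). Ednra (0.33) was nearest to Hey1 (0.11), Zfp521 (0.12) and Col16a1 (0.14), and Ednrb (0.23) to Ifit2 (0.07), Rgs18 (0.08) and Trp53inp1 (0.10). Edn1 (0.25) was nearest to H3f3b, H1f0 and Mtap7d3 (0.11 to 0.12), Adm (0.45) to Ccdc68, Hoxd8 and Junb (0.19 to 0.21), and Ece1 (0.09) to Rassf1, Metrnl and Riok3 (all 0.03). Among the 10 genes themselves the smallest difference was that of Npr2 with Npr3 (0.17), against own spreads of 0.24 and 0.18.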

How the data were processed

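The deposited gene counts (whole numbers per gene, not normalized) and the FPKM values, which the authors scaled for length and depth, were used for all 7 libraries. The submitters' processing notes name GRCm38.p6 and, with no role or version, the tools Trimmomatic, Cufflinks, DESeq, HISAT2 and HTSeq. Whether counting used strand is not given in the sources used here. RefSeq lists long non-coding genes over Ednra, Ednrb, Ece1, Npr3 and Adm that are not rows of the count table, and Spag8 over the end of Npr2 (45 counts in all), so reads of such neighbours cannot be told apart. Coordinates are RefSeq's on GRCm38.p6.

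Counts were filtered with filterByExpr (minimum count 10), scaled by TMM and tested with edgeR 4.0.16 (quasi-likelihood, no covariate, Benjamini-Hochberg over 14609 genes) in R 4.3.3. The SE of a log2 fold change was its size divided by the square root of F. Log2 CPM used a prior count of 2. Alternatives used DESeq2 1.42.0, limma 3.58.1, RLE, other filters, FPKM, a replicate block and each library left out; leaving out ApoE 2 and ApoE 3 together was chosen after seeing the data, as were the TATA and GC box motifs. On simulated DKO against ApoE counts with 200 changed genes, the test recovered 0% of those changed 1.5-fold, 35.5% at 2-fold and 84.0% at 4-fold, with 0, 2 and 9 false calls among 14475 to 14495 genes.

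The 10 genes and all lists were chosen with earlier results of these data known. Named besides them were 8 ligand and co-receptor genes, the 2 genes of each pathway list with the smallest p, and the 3 nearest genes in pattern. Prkg1, Pde5a, Gnaq, Gna11, Plcb1, Plcb3 and Plcb4 were named after their values were seen, for their roles. Gnas was also named after its values were seen, because its groups did not overlap. Gucy1a1 and Gucy1b1 were matched through their gene identifiers. The fibroblast, pericyte, macrophage, brown adipocyte, Schwann cell, mesothelial and adrenal marker lists were also measured, and their levels stand in the closing section.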

Additional observations from a re-analysis of the deposited data

Results flagged for a closer look

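In the group of 4 libraries labelled double knockout, the highest or lowest value was checked for standing far from the other 3 in 48 quantities, and 3 did so. Chance gives about 1 in 20. Npr2 was at 150.8 CPM in DKO 4, where the next library was at 107 CPM. Nppa was at 0.0938 CPM in DKO 2, from 2 counts, with 0 in the other 3, a value under the limit that a count of 0 allows. The 7 adrenal markers summed to 667 CPM in DKO 2, with the next library of that group at 76.9 CPM. ApoE 1 and ApoE 2 also held 266 and 566 CPM of them. In DKO 2 the sum was nearly all Dbh (409 CPM), Th (222 CPM) and Chga (32.1 CPM). Pnmt, Cyp11a1, Cyp11b1 and Star were at 0.0469, 0.234, 0.0938 and 2.77 CPM there. The source of the sum was not tested.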

How the results depend on the processing

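With 3 against 4 libraries the tests detect few changes under 2-fold, and genes at a few counts (Edn2, Nppb, Adm2) were out of reach at this depth. Over all genes the 0 higher and 4 lower became 453 and 673 with DESeq2, 902 and 1467 with limma voom, 1 higher with limma on filtered FPKM at either pseudocount, 0 lower on unfiltered FPKM, 0 lower with the replicate block and 0 lower without ApoE 2 and ApoE 3, and 0 to 4 higher and 0 to 2 lower with 1 library left out. Of the 10 genes, those called lower went from 0 to 1 with DESeq2 and with voom, and stayed 0 in the other 15 settings; other pathway genes called went from 0 to 1 lower with DESeq2 (Corin, adjusted p = 0.0216) and to 1 higher with voom (Furin, adjusted p = 0.0479). Those without overlap were 1 to 4 with 1 library left out: 3 without ApoE 1 (Edn1, Calcrl and Ramp2; 22.0% of all genes) and 4 without DKO 4 (38.1% of all genes). The adjusted p of Ramp2 was 0.0177 to 0.559 over 17 alternatives, all negative.

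Signs near 0 turned. With 1 library left out, log2 fold changes ran from -0.038 to 0.39 for Edn1 (-0.038 without ApoE 2), -0.24 to 0.052 for Ednra, -0.235 to 0.083 for Ednrb, -0.016 to 0.078 for Ece1 (-0.016 without ApoE 2, -0.0043 without DKO 1), -1.49 to 0.23 for Edn3 (positive without ApoE 1, ApoE 2, DKO 1 or DKO 4: 0.23, 0.13, 0.20 and 0.074), -0.10 to 0.85 for Nppc (-0.052 without ApoE 2, -0.10 without ApoE 3) and -0.65 to 0.14 for Ramp1 (positive without ApoE 1, DKO 1, DKO 2 or DKO 3: 0.014, 0.14, 0.0084 and 0.0055). Without ApoE 2 and ApoE 3 together, which leaves 1 library assumed to vary like the others, Edn1 was -0.30, Ece1 -0.022, Adm -0.26, Nppc -0.64, Ramp3 -0.16 and Corin -0.41 (from -2.85). Ednrb was 0.063 with voom. Adm ran from 0.082 to 0.70 with 1 library left out. The Ednrb to Ednra ratio ran from -0.14 to 0.29 and Ednra against contractile markers from -0.20 to 0.75 with 1 library left out.

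The replicate number as a block turned Ednra to 0.046 and gave Ramp2 an adjusted p of 0.0940; none of the 10 genes passed. No consistent pairing by number showed: the correlations of same-numbered libraries were -0.39, 0.70 and 0.0036. The closest match was DKO 2 for both ApoE 1 and ApoE 2, and DKO 1 for ApoE 3. The causes of these shifts were not tested.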

Other observations

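Marker levels of other cell types, as summed CPM, were as follows. Fibroblast markers (7) summed to 12567 to 14112 CPM in the libraries labelled ApoE-/- and 9714 to 19156 CPM in those labelled double knockout, most of it Col1a1 (6551 to 15573 CPM). Of the 7, 3 (Dcn, Dpt and Pi16) were lower without overlap at an unadjusted p under 0.05 (adjusted p of 0.115 to 0.183 in edgeR). Over all genes, 9.24% were lower without overlap and 11.8% were lower at that p. Pericyte markers (6) summed to 1126 to 1472 and 1199 to 1742 CPM, and macrophage markers (8) to 2405 to 3539 and 2601 to 5107 CPM. Brown adipocyte markers (6) summed to 649 to 1849 and 250.2 to 567 CPM without overlap. Schwann cell markers (7) summed to 80.2 to 304 and 63.7 to 199 CPM, mesothelial markers (5) to 4.02 to 15.5 and 2.66 to 7.09 CPM, and adrenal markers (7) to 5.51 to 566 and 18.3 to 667 CPM. Lower at an unadjusted p under 0.05 in edgeR were 1 pericyte (Kcnj8), 1 macrophage (Cd163), 5 brown adipocyte and 1 mesothelial marker. None of the Schwann cell or tested adrenal markers was. Lower without overlap, among tested genes, were 1 macrophage (Cd163), 3 brown adipocyte and 1 Schwann cell marker.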
